A study of Mus musculus with 6 samples.

Results

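Described here are 31 genes of fatty acid oxidation and of the peroxisome proliferator-activated receptors (PPARs), measured by RNA-seq in isolated mouse islets. They were chosen by gene symbol from a list of the pathway, and all 31 were found among the 46983 gene rows of the count table, with names and coordinates from GENCODE M21 on GRCm38. Islets are the clusters of hormone-secreting cells of the pancreas, in which insulin-producing beta cells are the most common cell type. Wild-type islets were cultured for 24 h in CMRL medium, with 3 libraries from low (non-stimulating) glucose and 3 from high (stimulating) glucose. Both groups therefore share the genotype, the isolation and the culture, and no islets taken straight from the animal were compared. The sources used here do not give the glucose concentrations, the strain, the age or how many animals went into a library. Whether replicates were separate animals or cultures is not stated either, and the p-values therefore cover the spread among these libraries alone, which may be technical.

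Fatty acids are oxidized by shortening their chains, bound to coenzyme A, in repeated cycles. Long chains enter the mitochondrion through the carnitine shuttle, and each cycle then uses an acyl-CoA dehydrogenase, a hydratase, a hydroxyacyl-CoA dehydrogenase and a thiolase, while electrons pass to the respiratory chain through the electron transfer flavoprotein. Very long and branched chains are first shortened in peroxisomes. The PPARs are nuclear receptors that bind fatty acids as ligands, pair with retinoid X receptors and switch on many genes of these steps. In beta cells glucose is the main fuel that triggers insulin release, and malonyl-CoA made from glucose carbon blocks the carnitine shuttle.

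Counts per gene were compared with edgeR's quasi-likelihood test over all 13996 genes that passed a filter on low counts, and a gene was called changed at a Benjamini-Hochberg adjusted p under 0.05. All 31 members passed that filter. Levels are given in CPM, counts scaled to the effective library size by TMM, which sets the libraries to a common level over most genes, and differences as log2 fold changes of high minus low glucose with their standard error. Values are listed for replicates 1, 2 and 3 in that order.

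At high glucose 14 of the 31 members fell and 4 rose, and 13 did not pass the test. Among all genes tested, 14.2% were called lower and 13.3% higher, against 45.2% and 12.9% of the members. The members' median log2 fold change was -0.38, beside 0.01 over all genes tested. The falls were in the enzymes of the oxidation cycle, in electron transfer and in the receptors, led by Hadh, Ehhadh, Acaa2 and Ppara. The rises were in Angptl4, Acot1 and Acot2, listed here as PPAR targets, and in the dehydrogenase gene Acadl. Ehhadh, among the falls, is a PPAR target as well. Libraries of the groups did not overlap for 22 members, or 71.0%, against 45.9% of all genes tested.

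**Figure D1:**
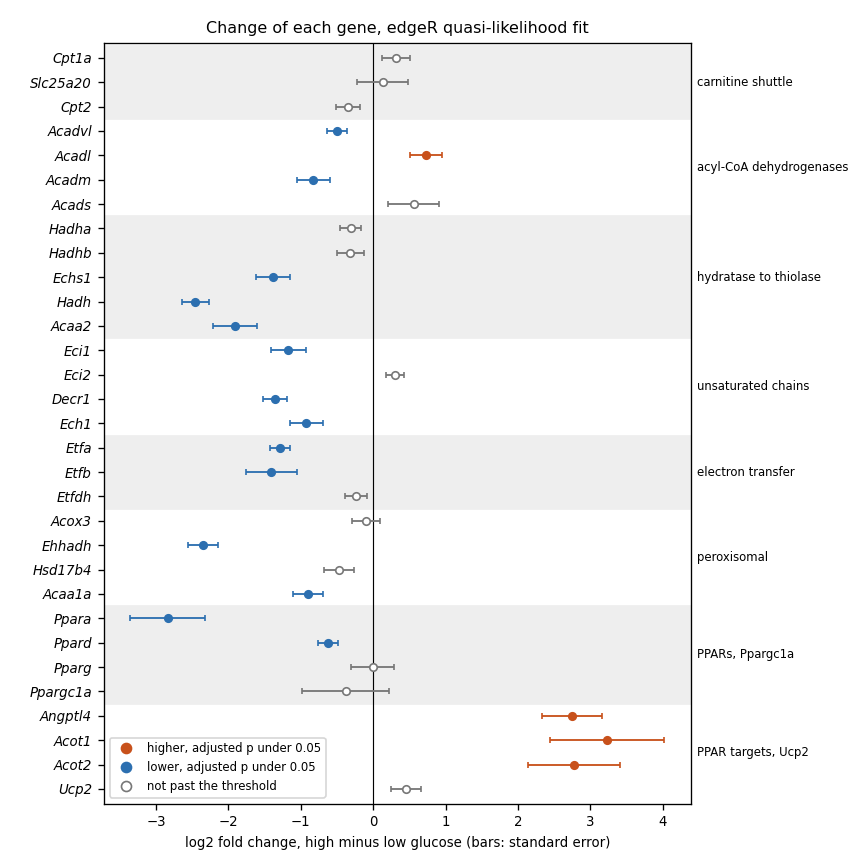
Log2 fold change of each of the 31 genes, high minus low glucose, with its standard error (3 libraries per group); filled points passed an adjusted p of 0.05 and open points did not. The mitochondrial steps after the dehydrogenases lie mostly to the left of 0, from -2.46 for Hadh to -0.31 for Hadha, whereas Angptl4, Acot1 and Acot2 lie between 2.74 and 3.23.

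The libraries held 10596020 to 15846235 counts, and their makeup differed between the groups. Markers of exocrine acinar cells, 35 genes of which 31 fell and none rose, took 49.6, 65.6 and 63.4% of the counts at low and 12.9, 25.6 and 24.8% at high glucose. The 15 markers of intestinal epithelium, of which 13 were tested and all 13 fell, summed to 6427, 4985 and 2054 CPM at low and 183, 57.6 and 39.5 CPM at high glucose. The 20 hormone and granule genes, which include Ins1, Ins2, Gcg and Sst, took 4.98, 2.35 and 2.53% and 10.97, 4.12 and 4.76% of the counts. No marker in these lists was at 0 in every library. Of 18 beta cell markers 7 fell and 0 rose, with a median log2 fold change of -0.44. Their sum, which includes Ins1 and Ins2, overlapped between the groups, at 26504 to 34570 CPM at low and 18114 to 40471 CPM at high glucose. With libraries scaled to the hormone and granule genes 6 of them fell and 0 rose. With library totals 4 fell and 4 rose. In bulk libraries fewer cells of a type and less RNA per cell cannot be told apart, and the part of this makeup in the results below was not tested.

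How far the members fell depended on the reference against which they were read. The 20 hormone and granule genes, used as one reference, were not constant. Of these 4 rose and 2 fell, and 3 rose and 1 fell under their own scaling. Their summed level was 53106, 41433 and 46598 CPM at low and 61504, 30144 and 33969 CPM at high glucose. When libraries were scaled to their hormone and granule genes, 4 members fell (Hadh, Acaa2, Ehhadh and Ppara) and 3 rose (Angptl4, Acot1 and Acot2), beside 7.5% and 7.53% of all genes. With library totals 3 fell (Hadh, Ehhadh and Ppara) and 11 rose (Cpt1a, Acadl, Acads, Hadha, Eci2, Etfdh, Acox3, Angptl4, Acot1, Acot2 and Ucp2), beside 4.49% and 59.6% of all genes. These scalings moved the median of all genes from 0.01 to 0.29 and 1.16. The members' median minus that of all genes was -0.4 under each of the 3 scalings. A scaling shifts every gene by nearly the same amount, so this difference was bound to stay and is not separate evidence. Summed over the 31 members, the share of raw counts was 0.144, 0.0826 and 0.0712% at low and 0.165, 0.155 and 0.161% at high glucose, while their summed TMM-scaled level was 1539, 1454 and 1309 CPM at low and 927, 1129 and 1146 CPM at high glucose. The count of falls was 9 without low glucose replicate 1, 7 without low glucose replicate 2, 11 without replicate 3, 15, 9 and 10 without high glucose replicates 1, 2 and 3. The count of rises was 1 without any single low glucose library and 6, 2 and 1 without high glucose replicates 1, 2 and 3. Over all genes 3848 were called with every library, and 2683, 1743 and 2871 without low glucose replicates 1, 2 and 3. Without high glucose replicates 1, 2 and 3 the count over all genes was 5685, 2572 and 1999. The falls over all genes were 1987 with every library and 1581, 1035 and 1589 without low glucose replicates 1, 2 and 3. They were 2892, 1469 and 1172 without high glucose replicates 1, 2 and 3, and the other calls were rises. Of the 18 calls, 8 held with each library left out in turn (Echs1, Hadh, Acaa2, Decr1, Etfa, Ehhadh, Ppara and Angptl4).

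**Figure D2:**
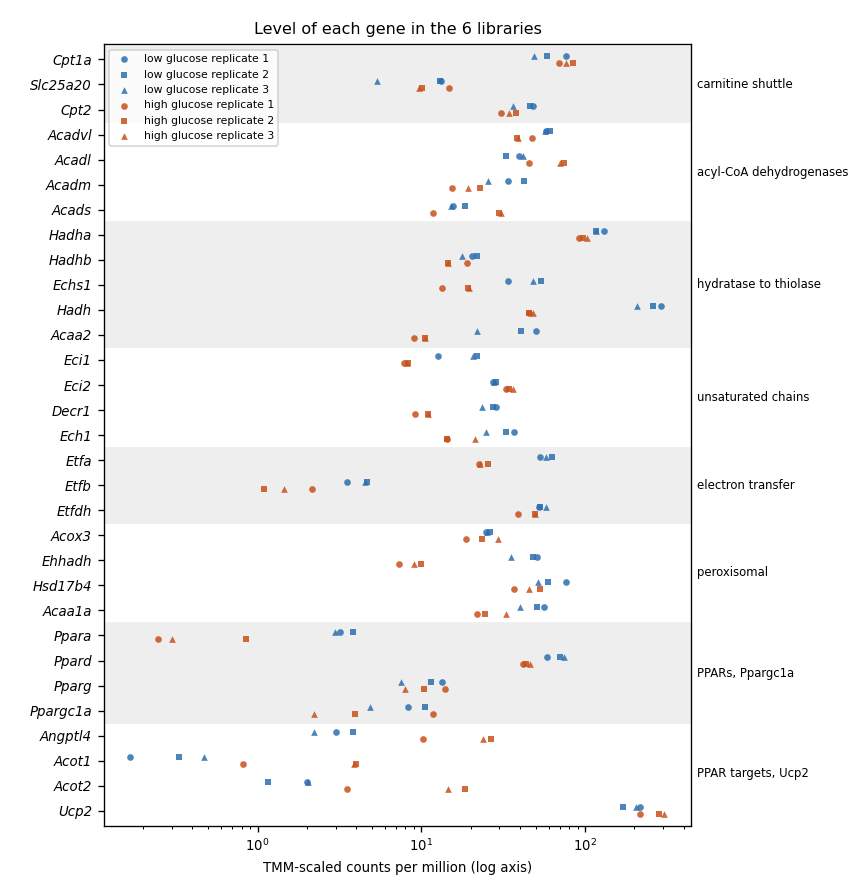
TMM-scaled CPM of the 31 genes in each library on a log axis, grouped by role; blue symbols are low and orange symbols high glucose, and the symbol shape gives the replicate. Hadh lies at 208 to 292 CPM at low and at 45.3 to 47.8 CPM at high glucose.

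The carnitine shuttle genes did not pass the test. Cpt1a encodes the liver form of carnitine palmitoyltransferase 1, the step that malonyl-CoA inhibits, and had 76.7, 58.5 and 48.9 CPM at low and 68.9, 83.9 and 76.4 CPM at high glucose. Its groups overlapped, and the log2 fold change was 0.31 ± 0.19 (adjusted p 0.262). Slc25a20, the carnitine-acylcarnitine carrier of the inner membrane, had 13.1, 12.97 and 5.35 CPM at low and 14.8, 10.1 and 9.62 CPM at high glucose, with overlapping groups and a log2 fold change of 0.13 ± 0.36. Cpt2, which rebuilds the acyl-CoA inside the mitochondrion, had 47.9, 46.4 and 36.3 CPM at low and 30.7, 37.8 and 34.4 CPM at high glucose, and its difference of -0.35 ± 0.16 did not pass either. A ratio between genes within a library does not depend on the scaling. The pairs given here and below were chosen after values had been seen. How often ratios of other gene pairs do not overlap was not counted, so these ratios are descriptions only. Per kilobase of exonic length, the ratio of Cpt1a to Cpt2 was 0.501, 0.395 and 0.421 at low and 0.703, 0.693 and 0.696 at high glucose, so the ratio was higher in each high glucose library although neither gene passed. The size of each ratio depends on the annotated exonic length of both genes, whereas its fold difference between the groups does not. The muscle form Cpt1b had 5 counts summed over low glucose and 2 summed over high glucose.

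The acyl-CoA dehydrogenase genes, each for a range of chain lengths, did not move together. Acadl, for long chains, rose by 0.73 ± 0.22 (adjusted p 0.0424; 0.0563 with limma-voom), with 39.8, 32.7 and 41.99 CPM at low and 45.3, 74.6 and 70.1 CPM at high glucose. High glucose replicate 1 lay close to the low glucose libraries and the other high glucose libraries well above them. Acadm, for medium chains, had 33.7, 42.4 and 25.5 CPM at low and 15.4, 22.8 and 19.2 CPM at high glucose and fell by 0.83 ± 0.23 (adjusted p 0.0362). Acadvl, for very long chains, had 58.1, 61.2 and 57.1 CPM at low and 47.2, 38.2 and 39.2 CPM at high glucose and fell by 0.50 ± 0.14 (adjusted p 0.0336; 0.124 with no filter on low counts). The groups did not overlap for any of these 3 genes. Acads, for short chains, had 15.6, 18.5 and 15.1 CPM at low and 11.8, 29.9 and 30.7 CPM at high glucose. Here high glucose replicate 1 lay below every low glucose library and replicates 2 and 3 above all of them, and the difference of 0.56 ± 0.35 did not pass, while without high glucose replicate 1 it was 0.89 and passed (adjusted p 0.00429). Within each library the ratio of Acadl to Acadm per kilobase was 2.300, 1.51 and 3.22 at low and 5.76, 6.398 and 7.13 at high glucose, with no overlap. Acadl and Acadvl lost their calls without any single library other than high glucose replicate 1, and Acadm without low glucose replicate 1 or 2 or high glucose replicate 3. With library totals the log2 fold changes of Acadm and Acadvl were 0.30 and 0.67, in the other direction and below the shift of all genes. Of Acadvl's exonic bases 42.9% overlap Dvl2 on the other strand, and the strand setting of the counting was not given.

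The steps from the hydratase to the thiolase held the largest fall among the member enzymes. Hadh encodes the mitochondrial dehydrogenase for short and medium 3-hydroxyacyl-CoA, an enzyme known to be abundant in beta cells and whose loss in humans causes excess insulin secretion. The gene lies on GRCm38 chromosome 3, 131233419 to 131272101, minus strand. It had 292, 261 and 208 CPM in the low glucose libraries and 45.7, 45.3 and 47.8 CPM in the high glucose libraries. Every low glucose library was far above every high glucose library, and the 3 high glucose libraries lay close together. Hadh fell by 2.46 ± 0.19, a 5.49-fold decrease (adjusted p 0.000570). Per kilobase of exonic length it was the highest of the 31 members at low glucose, with 50.98 CPM per kilobase, and ranked 10 at high glucose, with 9.295. Ranks between genes, here and below, depend on the annotated exonic length. That length was 4977 bases for Hadh, 8286 for Echs1, 6989 for Ucp2 and 1516 for Acaa2. The Hadh call held under each alternative tried, including library totals (-1.35) and the hormone and granule gene scaling (-2.16).

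Echs1, the short-chain enoyl-CoA hydratase, had 34.1, 53.7 and 48.4 CPM at low and 13.3, 19.3 and 19.6 CPM at high glucose and fell by 1.38 ± 0.23 (adjusted p 0.00581). Acaa2, the mitochondrial thiolase, had 50.3, 40.4 and 21.9 CPM at low and 9.02, 10.5 and 10.5 CPM at high glucose and fell by 1.91 ± 0.30 (adjusted p 0.00451). Its low glucose libraries differed more than 2-fold among themselves, yet all lay above the high glucose libraries. Hadha and Hadhb encode the alpha and beta subunits of the mitochondrial trifunctional protein, which carries out the last 3 steps on long chains. Hadha had 130.2, 117 and 116 CPM at low and 92.3, 97.6 and 103 CPM at high glucose, which did not overlap, but its difference of -0.31 ± 0.14 did not pass (adjusted p 0.144). Hadhb had 20.4, 21.8 and 17.6 CPM at low and 18.96, 14.5 and 14.6 CPM at high glucose and a difference of -0.31 ± 0.18. Thus the subunit genes of this one complex had nearly equal differences, and their ratio per kilobase overlapped between the groups, at 4.82, 4.05 and 4.97 and 3.68, 5.08 and 5.33. By contrast the ratio of Hadh to Hadha was 3.94, 3.92 and 3.15 at low and 0.870, 0.814 and 0.816 at high glucose. Of 50-base windows of Hadhb transcripts, 18.1% also occur in the pseudogene Gm13910, which leaves its count uncertain.

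Hadha and Hadhb lie head to head on chromosome 5 with 85 bases between their annotated starts. Those bases are shown because both genes are read outward from them, with Hadhb on the plus strand, and the proximal promoter of Hadh is shown as that of the enzyme gene with the largest fall. Sequences here and below are RefSeq promoter sequence of GRCm38.p6, written 5′ to 3′, and capitals mark matches to the GC box GGGCGG or to CCAAT on either strand.
Hadha-Hadhb, chr5:30155163-30155247, plus strand: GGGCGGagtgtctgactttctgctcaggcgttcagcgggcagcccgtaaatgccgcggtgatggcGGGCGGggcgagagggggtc
Hadh, chr3:131272122-131272251, minus strand, bases 150 to 21 before the start: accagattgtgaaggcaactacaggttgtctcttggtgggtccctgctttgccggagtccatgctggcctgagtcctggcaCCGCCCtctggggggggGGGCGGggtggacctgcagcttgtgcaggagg
Both stretches hold 2 GC boxes. In bases 150 to 21 before the start, a GC box was found for 18 of the 27 members with a promoter in the RefSeq table and for 27.7% of the 27025 genes in it, a gene being counted when any of its promoters held the motif. It was present for 8 of 12 members that fell, 2 of 3 that rose and 8 of 12 that did not pass. CCAAT was found for 5 of 12, 1 of 3 and 1 of 12 members, and for 25.5% of all genes in the table. The PPAR element AGGNCANAGGNCA, a direct repeat spaced by 1 base, and the E-box CACGTG were searched on both strands of the whole 300-base windows and found for 0 of 27 members, beside 0.451% and 8.09% of all genes in the table. The members with no promoter in the table were Acaa2, Decr1, Hsd17b4 and Angptl4. All members had passed the filter on low counts, whereas the genes in the table were not chosen by expression. The sets are thus unlike, the shares among tested genes alone were not counted, and no enrichment was tested. A match or its absence is a description of these windows only.

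Enzymes that prepare unsaturated chains fell in 3 of 4 cases, beside 14.2% of all genes called lower. Decr1, the 2,4-dienoyl-CoA reductase, had 28.5, 27.4 and 23.4 CPM at low and 9.197, 10.9 and 10.9 CPM at high glucose and fell by 1.36 ± 0.17 (adjusted p 0.00194). Eci1, the mitochondrial enoyl-CoA isomerase, had 12.6, 21.9 and 20.8 CPM at low and 7.89, 8.34 and 8.16 CPM at high glucose and fell by 1.17 ± 0.24 (adjusted p 0.0117). Ech1, a dienoyl-CoA isomerase, had 36.7, 32.9 and 25.00 CPM at low and 14.4, 14.4 and 21.2 CPM at high glucose and fell by 0.92 ± 0.23 (adjusted p 0.0223). In all 3 genes the lowest low glucose library stood above the highest high glucose library. Eci2, an isomerase found in peroxisomes and mitochondria, went the other way without passing, from 27.5, 28.8 and 27.7 CPM at low to 33.01, 34.3 and 36.3 CPM at high glucose (0.30 ± 0.13, adjusted p 0.112). The ratio of Eci2 to Eci1 per kilobase was 0.837, 0.503 and 0.512 at low and 1.61, 1.58 and 1.71 at high glucose, with no overlap. Eci1 did not pass without low glucose replicate 2, and Ech1 without low glucose replicate 1 or 2 or high glucose replicate 2. With library totals Eci1 had 0.05 and Ech1 0.17, not past the threshold.

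Of the genes that carry electrons from the dehydrogenases to the respiratory chain, those for the flavoprotein fell. Etfa, its alpha subunit, had 52.7, 62.8 and 57.4 CPM at low and 22.4, 25.4 and 22.9 CPM at high glucose and fell by 1.29 ± 0.14 (adjusted p 0.00137). Etfb, the beta subunit, had 3.52, 4.65 and 4.56 CPM at low and 2.16, 1.098 and 1.46 CPM at high glucose and fell by 1.41 ± 0.35 (adjusted p 0.0238). Etfdh, the membrane dehydrogenase that hands the electrons to ubiquinone, had 52.2, 52.9 and 57.9 CPM at low and 39.1, 49.3 and 49.7 CPM at high glucose, and its difference of -0.24 ± 0.15 did not pass. The ratio of Etfa to Etfdh per kilobase was 4.13, 4.86 and 4.06 at low and 2.34, 2.11 and 1.89 at high glucose, with no overlap. Etfb shares 53% of its exonic bases with the annotated gene Gm45233, which had 0 counts in every library, so the level of Etfb is uncertain. Its call was lost without any single library other than high glucose replicate 1.

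Peroxisomal oxidation genes fell in 2 of 4 cases, beside 14.2% of all genes called lower. Ehhadh, the bifunctional enzyme that acts as both hydratase and dehydrogenase, had 50.6, 48.2 and 35.2 CPM at low and 7.36, 9.99 and 8.97 CPM at high glucose and fell by 2.35 ± 0.21, a 5.11-fold decrease (adjusted p 0.000764). It is a classical PPAR-alpha target, and its call held under each alternative tried. Acaa1a, a peroxisomal thiolase, had 56.4, 51.03 and 40.1 CPM at low and 22.003, 24.4 and 32.9 CPM at high glucose and fell by 0.90 ± 0.21 (adjusted p 0.0176). Leaving out low glucose replicate 1, low glucose replicate 2 or high glucose replicate 2 ended that call, and with library totals the value was 0.19. Its close copy Acaa1b, with 96.5% identical bases in the open reading frame, had 134 counts in all at low and 3 at high glucose and did not pass the filter. After scaling, its level at low glucose was 125 times that at high glucose, with an exact 95% interval, for counting error alone, of 41.9 to 614.5. The low glucose libraries themselves differed widely in Acaa1b, at 8.704, 4.49 and 0.472 CPM, in the same order as the summed intestinal markers given above. An order over 3 libraries is a description only, and a link was not tested. Hsd17b4, the other bifunctional enzyme, had 76.3, 59.3 and 51.4 CPM at low and 36.8, 53.1 and 45.4 CPM at high glucose, overlapping, with a difference of -0.47 ± 0.20. Acox3, an oxidase for branched chains, had 24.9, 26.4 and 25.3 CPM at low and 18.8, 23.5 and 29.4 CPM at high glucose (-0.10 ± 0.19). The ratio of Ehhadh to Hsd17b4 per kilobase was 0.758, 0.928 and 0.782 at low and 0.229, 0.215 and 0.225 at high glucose.
Ehhadh, chr16:21787855-21787984, minus strand, bases 150 to 21 before the start: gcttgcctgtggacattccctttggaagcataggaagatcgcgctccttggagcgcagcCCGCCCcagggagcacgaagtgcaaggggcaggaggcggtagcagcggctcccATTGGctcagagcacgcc
The Ehhadh promoter stretch, shown as that of the peroxisomal gene with the largest fall, holds 1 GC box and 1 CCAAT match.

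**Figure D3:**
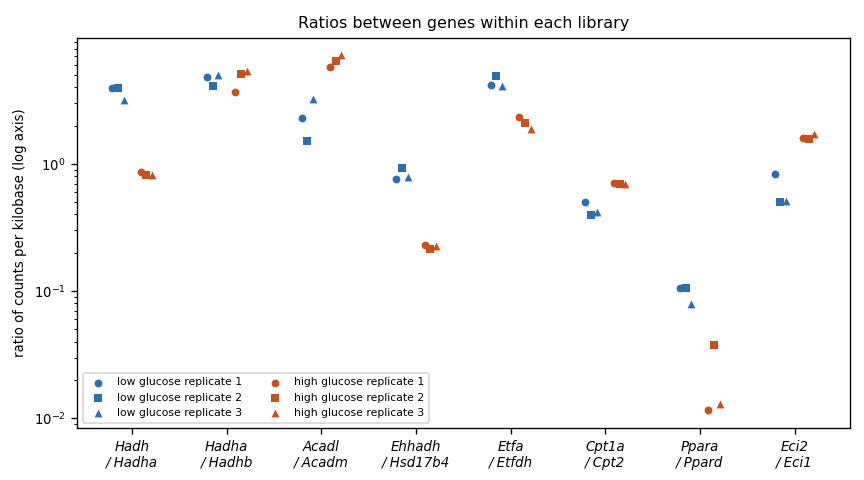
Ratio of counts per kilobase of exonic length between pairs of members within each library, on a log axis; blue is low and orange high glucose. Hadha over Hadhb overlaps between the groups, and the other 7 pairs do not. The pairs were chosen after values had been seen, so the lack of overlap is a description only.

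Among the receptors, Ppara and Ppard fell and Pparg did not pass. Ppara, the receptor best known for driving fatty acid oxidation in liver, was low throughout, with 3.18, 3.82 and 2.99 CPM at low and 0.248, 0.849 and 0.302 CPM at high glucose. It fell by 2.84 ± 0.51 (adjusted p 0.00775), on 80 counts in all at low and 30 at high glucose. The scaled level at low glucose was 7.47 times that at high glucose, with an exact 95% counting interval of 4.855 to 11.8. Ppard, the most abundant of the receptors in these islets per kilobase, had 58.9, 70.3 and 74.1 CPM at low and 41.99, 43.8 and 45.95 CPM at high glucose and fell by 0.62 ± 0.14 (adjusted p 0.0173). Pparg, known as the receptor of adipocytes, had 13.3, 11.5 and 7.55 CPM at low and 13.97, 10.4 and 7.91 CPM at high glucose, and its difference was -0.01 ± 0.29. The ratio of Ppara to Ppard per kilobase was 0.106, 0.107 and 0.0790 at low and 0.0116, 0.0379 and 0.0129 at high glucose. Ppargc1a, a coactivator of the PPARs and of mitochondrial biogenesis, had 8.29, 10.5 and 4.87 CPM at low and 11.9, 3.94 and 2.22 CPM at high glucose. High glucose replicate 1 was its highest library, and the difference was -0.38 ± 0.60 with all libraries but -1.35 without high glucose replicate 1, where it passed (adjusted p 0.0323). With no filter on low counts the Ppard call was lost (adjusted p 0.0510). It was also lost without low glucose replicate 2 or 3 or high glucose replicate 2 or 3, with the hormone and granule gene scaling (-0.33), and with library totals, where the value was 0.56.

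Of 25 listed partners and regulators of the PPARs, 23 were tested, 4 fell and 1 rose, with a median log2 fold change of -0.12. The count of falls is near the 14.2% of all genes called lower, so the genes below are named by rule and not as a change of the list. The retinoid X receptor gene Rxra, which encodes the partner of the PPARs on DNA, had 58.6, 70.3 and 74.1 CPM at low and 33.2, 41.2 and 41.2 CPM at high glucose and fell by 0.81 ± 0.16. Its deposited counts in low glucose replicates 2 and 3, 423 and 471, happened to equal those of Ppard, whereas the other libraries differed. Ppargc1b, a coactivator related to Ppargc1a, had 2.93, 2.33 and 4.09 CPM at low and 0.990, 0.749 and 0.504 CPM at high glucose and fell by 2.03 ± 0.40. The coactivator gene Ncoa1 fell by 0.87 ± 0.16 and the nuclear receptor gene Hnf4a by 1.38 ± 0.35. Rxra lost its call without low glucose replicate 2, and Hnf4a without low glucose replicate 1 or 2 or high glucose replicate 3. With the hormone and granule gene scaling Ppargc1b alone of the 4 passed. With library totals none of them passed while 13 of the list rose, beside 59.6% of all genes called higher. In that scaling Rxra (0.36) and Ncoa1 (0.27) were in the other direction.

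Of the 4 members listed as PPAR targets and not as oxidation enzymes 3 rose, beside 13.3% of all genes called higher. Ehhadh, a PPAR-alpha target listed with the enzymes, fell. Angptl4, which encodes a secreted inhibitor of lipoprotein lipase, had 3.01, 3.82 and 2.202 CPM at low and 10.3, 26.7 and 23.7 CPM at high glucose. All high glucose libraries were above all low glucose libraries, and high glucose replicate 1 was the lowest of the 3. Angptl4 rose by 2.74 ± 0.41, a 6.702-fold increase (adjusted p 0.00394), and the call held under each alternative tried. Acot1 and Acot2 encode acyl-CoA thioesterases of the cytosol and the mitochondrial matrix, which release free fatty acids from coenzyme A. Acot2 had 2.01, 1.16 and 2.04 CPM at low and 3.502, 18.6 and 14.5 CPM at high glucose and rose by 2.78 ± 0.63 (adjusted p 0.0174). Acot1 had 0.167, 0.332 and 0.472 CPM at low and 0.814, 3.99 and 3.88 CPM at high glucose and rose by 3.23 ± 0.79 (adjusted p 0.0227), on 7 counts in all at low and 180 at high glucose. The scaled level at high glucose was 9.18 times that at low glucose, with an exact 95% counting interval of 4.36 to 23.2. In both genes high glucose replicate 1 lay far below the other high glucose libraries and only a little above the low glucose ones. Neither gene passed with limma-voom (adjusted p 0.133 for Acot1 and 0.159 for Acot2). Leaving out any single library other than high glucose replicate 1 ended the Acot1 call, and for Acot2 this held for low glucose replicates 1 to 3 and high glucose replicate 3.

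Acot1 and Acot2 lie side by side on chromosome 12, and their open reading frames share 95.5% of aligned bases. Of 50-base windows, 13.6% of those of Acot1 also occur in Acot2 and 24.5% of those of Acot2 in Acot1, so reads may have been split or dropped between them. Their promoters are shown because the genes moved together although the stretches are much less alike, with 56.7% of aligned bases identical.
Acot1, chr12:84009352-84009481, plus strand, bases 150 to 21 before the start: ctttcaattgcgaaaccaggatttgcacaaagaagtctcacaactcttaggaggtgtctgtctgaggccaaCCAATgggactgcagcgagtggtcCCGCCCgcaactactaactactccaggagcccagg
Acot2, chr12:83987711-83987840, plus strand, bases 150 to 21 before the start: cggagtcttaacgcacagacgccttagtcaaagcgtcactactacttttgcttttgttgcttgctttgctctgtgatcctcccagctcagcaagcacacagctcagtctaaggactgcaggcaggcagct
The Acot1 stretch holds 1 GC box and 1 CCAAT match, and the Acot2 stretch neither. Ucp2, a carrier of the mitochondrial inner membrane, was the member with the highest level per kilobase at high glucose (38.4 CPM per kilobase, and 28.1 at low glucose). It had 216, 170.1 and 204 CPM at low and 218, 282 and 306 CPM at high glucose, which did not overlap, but the difference of 0.45 ± 0.20 did not pass (adjusted p 0.139). Without high glucose replicate 1 it passed, at 0.58 (adjusted p 0.0444).

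Other PPAR targets were listed by pathway and not by change. Of 28 listed genes 21 were tested, and 3 rose and 7 fell, with a median of -0.35. Among all genes 13.3% were called higher, near the share of this list that rose, and 14.2% lower. With library totals 9 rose and 3 fell, beside 59.6% and 4.49% of all genes. With the hormone and granule gene scaling 2 rose and 3 fell, beside 7.53% and 7.5%. Plin2, which coats lipid droplets, had 13.9, 10.5 and 10.7 CPM at low and 70.7, 148 and 168 CPM at high glucose and rose by 3.45 ± 0.35. Retsat, a retinol saturase, fell by 2.72 ± 0.29, from 24.9, 36.1 and 17.1 to 4.17, 3.79 and 3.83 CPM. Creb3l3, a transcription factor gene of liver and intestine, had 70.1, 43.9 and 15.6 CPM at low and 1.24, 1.598 and 0.605 CPM at high glucose and fell by 5.23 ± 0.63, and the lipid droplet gene Cidec fell by 5.56 ± 0.82. The low glucose levels of Creb3l3 lay in the order of the summed intestinal markers, highest in replicate 1 and lowest in replicate 3. Other marker sums differed among these libraries too, and a link to any of them was not tested. Pdk4, which blocks pyruvate entry into the citric acid cycle, had 9.79, 12.5 and 7.71 CPM at low and 6.08, 21.3 and 21.3 CPM at high glucose and did not pass (0.70 ± 0.47). High glucose replicate 1 was the lowest of the 6 libraries, and without it Pdk4 passed, at 1.09 (adjusted p 0.00714).

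This low position of high glucose replicate 1 was counted after it had been seen. Replicate 1 was more than 2-fold below each of the other high glucose libraries for 7 of the 21 tested genes of that list and for 4 of the 31 members (Acads, Angptl4, Acot1 and Acot2), beside 5.67% of all genes tested. Among the 23 oxidation enzyme members this held for Acads only. In the other direction, replicate 1 was more than 2-fold above both for 1 gene of that list (Cidec) and 1 member (Ppargc1a). Over all genes tested, 942 lay more than 2-fold above and 794 more than 2-fold below. The same library had the largest share of hormone and granule counts among the high glucose libraries (10.97, 4.12 and 4.76%) and the smallest share of acinar counts (12.9, 25.6 and 24.8%). It also had the largest summed level of immune markers among the high glucose libraries, 203, 22.97 and 60.6 CPM over 9 genes. Duct cell markers, 10 genes of which 4 rose and 1 fell, summed to 820.0, 982 and 1199.5 CPM at low and 1911, 6226 and 5545 CPM at high glucose. Their sum was thus higher in every high glucose library, and replicate 1 was the lowest of the 3, as for Angptl4, Acot1 and Acot2. The median log2 fold change of the 10 duct markers was -0.27, so the higher sum did not hold for every marker. No duct marker was at 0 in every library. The part of these differences in the PPAR target values was not tested.

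**Figure D4:**
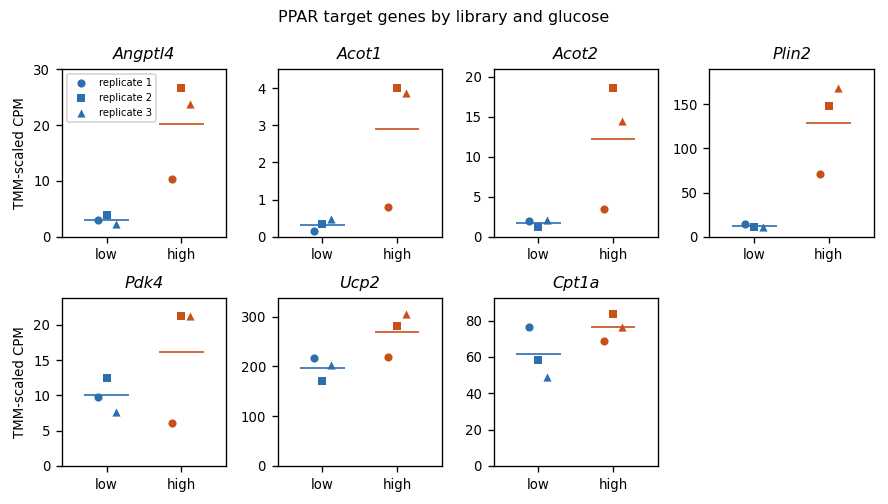
TMM-scaled CPM of 7 PPAR target genes in the 6 libraries; the horizontal lines are group means, each panel starts at 0, and the symbol gives the replicate. High glucose replicate 1 (orange circle) is the lowest high glucose library in every panel, and for Pdk4 the lowest of all 6. The panels were picked, and all their genes have a positive log2 fold change. For Retsat and Cidec, which are not shown, that library is the highest at high glucose.

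Of 31 other listed genes of fatty acid oxidation 26 were tested, 15 fell and 0 rose, with a median of -0.86 (edgeR's quasi-likelihood test, beside 14.2% lower and 13.3% higher over all genes). With library totals 1 fell and 4 rose, beside 4.49% and 59.6% of all genes. With the hormone and granule gene scaling 4 fell and 0 rose, beside 7.5% and 7.53%. Eci3, a peroxisomal isomerase gene related to Eci2, had 9.96, 10.97 and 7.55 CPM at low and 0.707, 1.05 and 0.806 CPM at high glucose and fell by 3.47 ± 0.30. Acad11, an acyl-CoA dehydrogenase, had 53.6, 52.03 and 39.00 and 20.6, 16.5 and 18.04 CPM and fell by 1.39 ± 0.18. Acadsb, which acts on short branched chains from amino acids, had 82.6, 124 and 136 and 39.1, 30.5 and 32.6 CPM and fell by 1.74 ± 0.22. Scp2, which encodes a peroxisomal thiolase and sterol carrier, had 76.2, 67.5 and 55.98 and 29.5, 20.3 and 20.6 CPM and fell by 1.5044 ± 0.20. Mlycd, the malonyl-CoA decarboxylase that removes the inhibitor of the carnitine shuttle, had 22.1, 28.6 and 27.05 and 17.1, 13.4 and 16.5 CPM and fell by 0.72 ± 0.18 (with library totals 0.48, not past the threshold). That call was also lost without low glucose replicate 2 or 3 or high glucose replicate 2 or 3. Acacb and Acaca are given here beside Mlycd, but belong to the list of genes that bring in and activate fatty acids. They are not counted among the 31. Acacb, the counterpart of Mlycd, makes malonyl-CoA near mitochondria. It had 21.8, 44.2 and 39.9 and 6.403, 24.01 and 23.98 CPM and did not pass (-0.96 ± 0.50, and -1.12 with the replicate block, where it did). Acaca, the cytosolic acetyl-CoA carboxylase, had 10.4, 7.15 and 5.98 and 8.74, 8.69 and 8.57 CPM and did not pass (0.13 ± 0.24).

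Of 25 listed genes that bring in and activate fatty acids 20 were tested, 3 rose and 6 fell, with a median of -0.58. Among all genes 13.3% were called higher, near the share of this list that rose, and 14.2% lower. With library totals 6 rose and 1 fell, beside 59.6% and 4.49% of all genes. With the hormone and granule gene scaling 2 rose and 1 fell, beside 7.53% and 7.5%. The fatty acid binding protein gene Fabp5 had 5.11, 8.15 and 5.19 CPM at low and 40.3, 70.99 and 57.5 CPM at high glucose and rose by 3.21 ± 0.29. Acsl4, an acyl-CoA synthetase with a preference for arachidonic acid, had 26.3, 24.9 and 20.1 and 66.1, 70.05 and 60.6 CPM and rose by 1.46 ± 0.15. Acsl1, the synthetase tied to oxidation in several tissues, had 32.3, 44.2 and 31.3 and 16.6, 21.6 and 18.9 CPM and fell by 0.92 ± 0.19. Leaving out low glucose replicate 2 or high glucose replicate 3 ended that call, and with library totals the value was 0.24. Acss1, the mitochondrial acetyl-CoA synthetase, had 22.9, 29.1 and 18.2 and 3.396, 1.35 and 2.62 CPM and fell by 3.24 ± 0.36. The uptake receptor gene Cd36 had 16.99, 15.3 and 13.7 and 17.8, 6.39 and 5.84 CPM and did not pass (-0.61 ± 0.43), but without high glucose replicate 1 it passed at -1.33.

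Neighbouring pathways are given for scale, and no difference between lists was tested. Of 23 genes of the citric acid cycle and pyruvate entry 12 fell and 1 rose, with a median of -0.51, but with library totals 0 fell and 10 rose, and with the hormone and granule gene scaling 0 fell and 1 rose. Of 20 genes of fatty acid synthesis 4 fell and 4 rose, with a median of -0.15; library totals gave 2 falls and 13 rises, and the hormone and granule gene scaling 2 falls and 1 rise. The 23 oxidation enzyme members, by the same count, had 12 falls, 1 rise and a median of -0.50. Under library totals these members had 2 falls and 7 rises, and under the hormone and granule gene scaling 3 falls and 0 rises. The shares of all genes called lower and higher were 14.2% and 13.3% in the reported fit, 4.49% and 59.6% with library totals, and 7.5% and 7.53% with the hormone and granule gene scaling. Low glucose replicate 3 was the lowest low glucose library for 15 of these 23 genes and for 34.9% of all genes tested. That library also had the lowest summed intestinal (2054 CPM) and adipocyte (26.4 CPM) markers of the low glucose group. It had the highest summed duct (1199.5 CPM) and immune (215 CPM) markers of that group. A link between these sums and the enzyme levels was not tested.

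**Figure D5:**
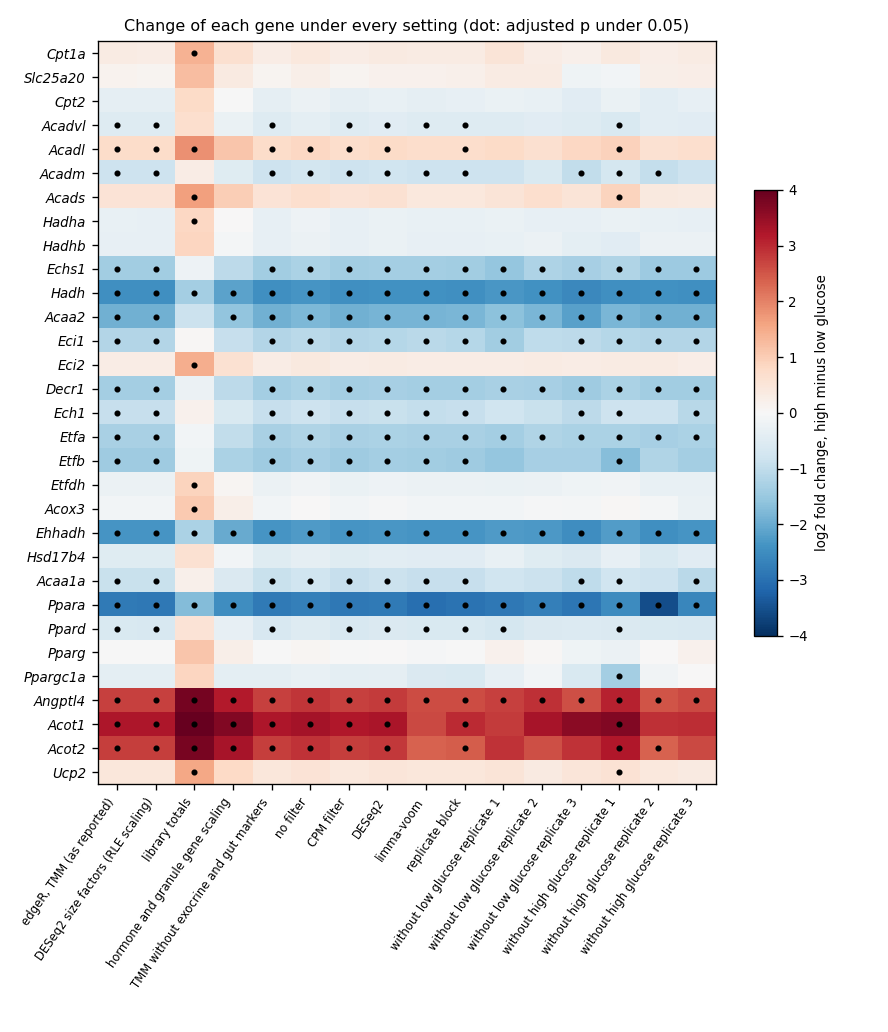
Log2 fold change (colour) of the 31 genes under the reported fit and 15 alternatives, with a dot where the adjusted p was under 0.05. Hadh, Ehhadh, Ppara and Angptl4 carry a dot in every column, and the column of library totals is shifted upward for every gene.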

How the data were processed

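Polyadenylated RNA of 6 islet libraries was sequenced after preparation from 500 ng of total RNA with 9 PCR cycles, per the labels' protocols. The authors deposited whole-number counts of reads per Ensembl gene, without normalization. STAR 2.7.3a, HTSeq 0.6.1p1 and the build GRCm38 are named in the submitters' processing notes. The strand setting, the annotation release and whether molecular barcodes were counted are not given in the sources used here. Count intervals cover counting error only. Columns were matched to samples by name. No name was found for 495 of 46983 genes (0.0141% of counts). No libraries differed by less than sampling noise (chi-square per degree of freedom at least 16.2).

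Groups were compared with edgeR 4.0.16 in R 4.3.3 (TMM, filterByExpr with minimum count 10 and minimum total 15, quasi-likelihood F-test, Benjamini-Hochberg over 13996 genes, threshold 0.05). Each standard error was derived from the F statistic (absolute log2 fold change over root F). The fit was tested on simulated counts. Alternatives were 4 other scalings, 2 other filters, DESeq2 1.42.0, limma-voom (limma 3.58.1), a block for replicate number, and fits without each library in turn. The members and lists were chosen with earlier results of these data known. All 31 members are named; of each further pathway list, up to 4 called genes with the smallest p and a fixed set of further genes were named, some of which are not reported here. Marker lists for duct, hepatocyte, adipocyte and endothelial and stromal cells and for beta cells were also summed. Their summed levels at low and high glucose were 820.0 to 1199.5 and 1911 to 6226 CPM (duct), 27.1 to 51.3 and 7.39 to 14.3 CPM (hepatocyte), 26.4 to 30.4 and 8.84 to 19.8 CPM (adipocyte), 341 to 459.7 and 112 to 386 CPM (endothelial and stromal), 143 to 215 and 22.97 to 203 CPM (immune), and 26504 to 34570 and 18114 to 40471 CPM (beta cell).

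Both groups carry replicate numbers 1 to 3, and deviations from the group means were compared to see whether the numbers pair libraries. Same-numbered libraries correlated at 0.403, 0.257 and 0.254 and others at -0.306 to 0.0748. Every same-numbered pair was above 0.1, the limit set for treating the numbers as possible pairs, but no label states a pairing. Deviations of 3 libraries from their own mean are not independent, so neither are these correlations. Replicate 1 also had the largest hormone and granule share in both groups, 4.98% at low and 10.97% at high glucose. A pairing was therefore not established, and the reported fit has no block. The GC box and CCAAT searches, the gene ratios and the counts of library patterns were chosen after values had been seen.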

Additional observations from a re-analysis of the deposited data

How the results depend on the processing

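The count of members that fell (14) was 12 with no filter, 3 with library totals, 4 with the hormone and granule gene scaling and 7 to 15 with 1 library left out. It was 14 with the other alternatives. The count that rose (4) was 11 with library totals, 3 with the hormone and granule gene scaling, 1 with limma-voom and 1 to 6 with 1 library left out. Over all genes 3848 changed, 8965 with library totals, 2104 with the hormone and granule gene scaling and 1743 to 5685 with 1 library left out. With the replicate block 4670 genes changed, and 4 members rose and 14 fell; among the named genes the block changed the call of Acacb and no other.

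Directions turned with library totals, which shifted all genes by 1.16 in the median, to these log2 fold changes: Cpt2 0.76, Acadvl 0.67, Acadm 0.30, Hadha 0.81, Hadhb 0.85, Eci1 0.0532, Ech1 0.17, Etfdh 0.90, Acox3 1.04, Hsd17b4 0.60, Acaa1a 0.19, Ppard 0.56, Pparg 1.12, Ppargc1a 0.86, Acsl1 0.24, Ncoa1 0.27, Rxra 0.36, Mlycd 0.48, Cd36 0.60 and Acacb 0.21. With the hormone and granule gene scaling they turned for Hadha (0.000293), Etfdh (0.0928), Acox3 (0.241) and Pparg (0.220). With no filter they turned for Acox3 (0.00284) and Pparg (0.0856) and with DESeq2 for Pparg (0.0276). With 1 library left out the range crossed 0 for Slc25a20 (-0.160 to 0.339), Acox3 (-0.260 to 0.0523), Pparg (-0.248 to 0.186), Ppargc1a (-1.35 to 0.0188) and Acaca (-0.0103 to 0.402). The cause was not tested. Depth limits Ppara, Acot1 and Cpt1b, which rest on few counts, and the groups' unequal acinar and intestinal shares limit any statement on one cell type.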
